A study of Mus musculus with 16 samples.

Results

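The glycine genes described here are 9 genes of the mouse amygdala: the glycine transporter genes Slc6a5 and Slc6a9, the glycine receptor genes Glra1, Glra2, Glra3 and Glrb, the receptor scaffold gene Gphn, and the glycine cleavage genes Gldc and Amt. They were chosen by name from the 17293 genes of the deposited table, and all 9 were found in it. RNA-seq had been performed on amygdala microdissected at postnatal day (PN) 28 from C57BL/6 offspring. CTRL offspring came from undisturbed dams and prenatally stressed (PS) offspring from dams that went through a chronic psychosocial stress paradigm in pregnancy. There were 4 CTRL males (LM17 to LM20), 4 PS males (LM25 to LM28), 4 CTRL females (LM21 to LM24) and 4 PS females (LM29 to LM32), 16 libraries in all, and the methods place the offspring of each group in different litters. The question was whether glycine signalling and glycine breakdown genes differed between PS and CTRL offspring in each sex, and between the sexes.

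Glycine is an inhibitory transmitter, best known from the spinal cord and brainstem. Glycinergic neurons take it up through GlyT2 (Slc6a5) and load it into vesicles, astrocytes and some neurons clear it through GlyT1 (Slc6a9), and it opens a chloride channel made of alpha subunits (Glra1 to Glra3) with the beta subunit Glrb, which gephyrin (Gphn) anchors at inhibitory synapses. In forebrain, where neurons with Slc6a5 are scarce, glycine also serves as a co-agonist of NMDA receptors, and the mitochondrial glycine cleavage system, with the decarboxylase Gldc and the aminomethyltransferase Amt, breaks it down and passes a carbon unit to folate.

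Levels are given as CPM (counts scaled to a common library total), which the authors had computed after removing unwanted variation from the gene counts, so the read depth behind a value cannot be recovered and low values carry no counting interval. The corrected totals ran from 39989993 to 44275406 per library. Within groups the libraries correlated at 0.994 to 0.999 on the log2 scale, and all 16 matched the sex on their label. A gene was tested with limma on log2(CPM + 0.5) where its mean CPM exceeded 0.5 in a compared group, and was called when its Benjamini-Hochberg adjusted p was under 0.05 and its fold change over 1.5. On this scale the change of a gene at low CPM is understated. By this rule 1.01% of 14309 genes were called between PS and CTRL males, 23 higher and 122 lower, and 0% of 14236 between PS and CTRL females. Between CTRL females and CTRL males 0.0562% were called, between PS females and PS males 2.09%, and 1.61% for the difference between the sexes in PS effect, taken as males minus females throughout. With CPM not scaled further, the male calls divided into 54 higher and 101 lower, and the PS female against PS male calls into 161 higher and 198 lower, in place of 208 higher and 91 lower.

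Single libraries stood apart in 2 ways that touch the results. The PS males LM25 and LM28 had summed CPM of 2962 and 3311 over 12 hippocampal markers, against 1376 and 1390 in LM26 and LM27 and 1039 to 1666 in CTRL males. Over 10 central amygdala and intercalated cell markers they had 36.0 and 43.8, against 64.0 and 76.6 in LM26 and LM27 and 64.8 to 110 in CTRL males. The PS females LM29 and LM30 held Hox transcripts, described with Slc6a5 below. The tissue label was met by basolateral amygdala markers, 8 of 8 of which were tested, with sums of 2370 to 4467 CPM in the 16 libraries. In bulk tissue, fewer cells of a type and less RNA per cell cannot be told apart.

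None of the 9 members was called by the rule used here in any of the 5 comparisons. With edgeR and their own factors, the authors reported Slc6a5 as higher in PS than in CTRL females, with a qPCR trend in that direction. They also listed Glra3 among the genes higher in PS females than in PS males. Glra1 was below the filter throughout and Slc6a5 was below it between CTRL females and CTRL males, so 8 members were tested in each comparison but that one, where 7 were. Between PS and CTRL males 2 of 8 had an unadjusted p under 0.05, both lower (Glra2 and Glra3), beside 25.7% of all genes. In females 0 of 8 did between PS and CTRL, beside 12.7% of all genes. Between CTRL females and CTRL males 2 of 7 did, both higher (Gldc and Amt), beside 5.54% of all genes. Between PS females and PS males 2 of 8 did, both higher (Glra2 and Glra3), beside 32.3%. For the difference between the sexes in PS effect 3 of 8 did, Glra2 and Glra3 negative and Amt positive, beside 24.6%. The median log2 fold change of the tested members was 0.055 in males and -0.028 in females, and over all genes it was 0.0073 and -0.0012.

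**Figure D1:**
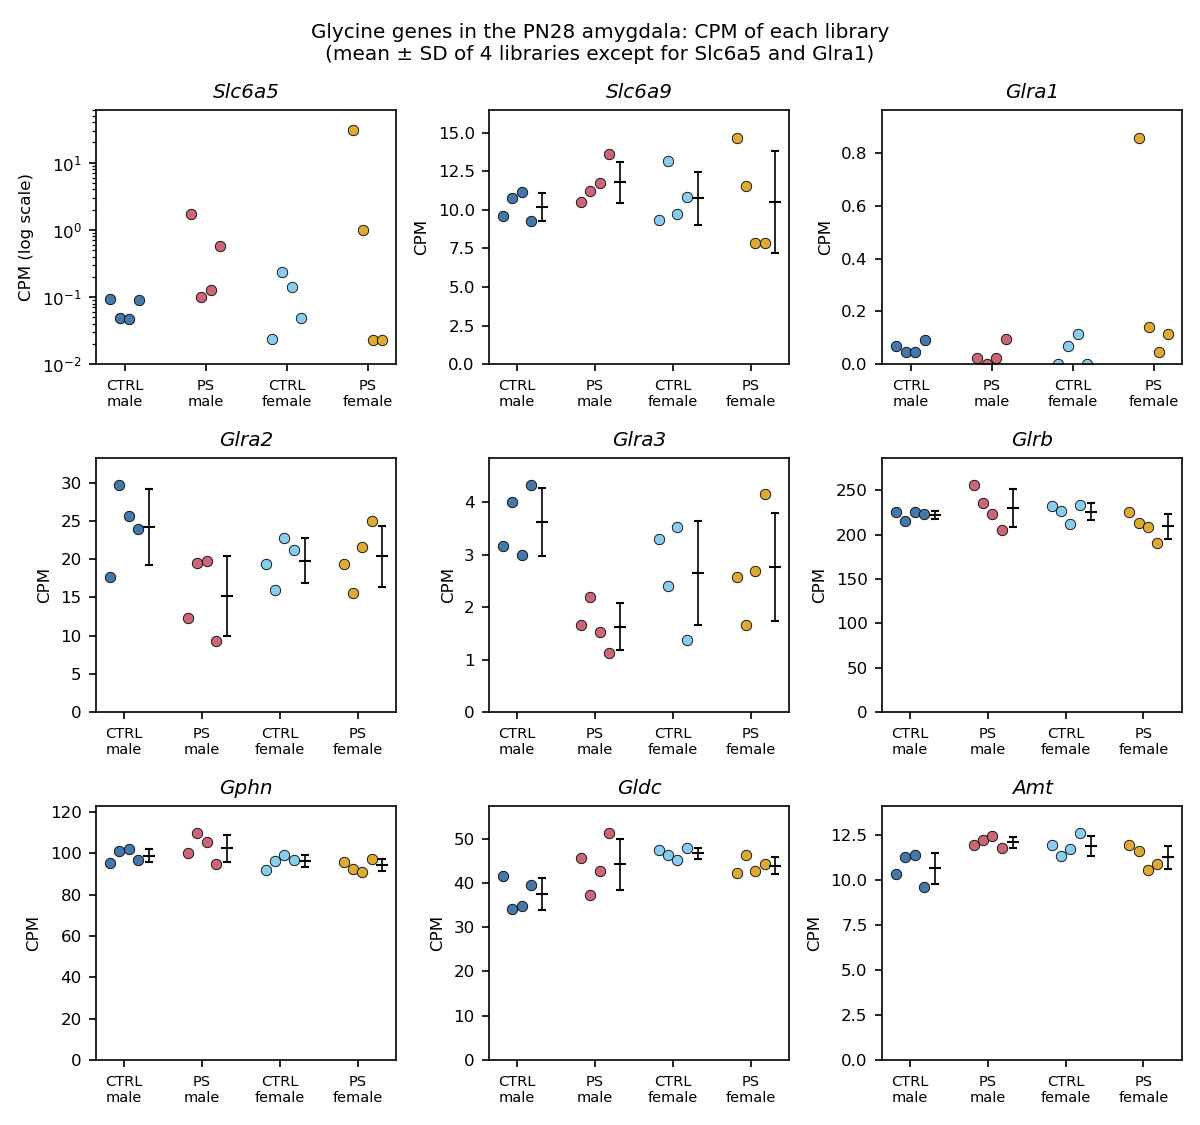
CPM of the 9 glycine genes in each of the 16 libraries, 1 panel a gene and 1 point a library, by group on the x axis; bars are the mean ± SD of 4 libraries, left out for Slc6a5 (log axis) and Glra1. Slc6a5 and Glra1 peaked in 1 PS female at 30.9 and 0.860 CPM, and Glra3 ran from 1.13 to 2.20 CPM in PS males and from 3.003 to 4.33 in CTRL males.

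Levels were compared between genes per kilobase of exon, with exon lengths from GENCODE M21 on GRCm38 (mm10). Glrb stood highest, with a mean of 47.7 CPM per kb over the 16 libraries, followed by Gphn at 26.1. Gldc came next at 7.08, then Glra2 at 6.31, Amt at 4.70 and Slc6a9 at 2.10 CPM per kb. The mean of Slc6a5, 0.305 CPM per kb, was set by a single library. By the mean, Glra3 at 0.290 and Glra1 at 0.0453 were the lowest. In median CPM, not scaled to exon length, Slc6a5 was at 0.0963, Glra3 at 2.64 and Glra1 at 0.0592. The ranges over libraries of Glrb (41.1 to 54.9), Gphn (24.3 to 29.3) and Gldc (5.61 to 8.41) did not overlap, whereas that of Glra2 (2.95 to 9.40) overlapped with those of both Gldc and Amt (3.94 to 5.16). Slc6a9 (1.53 to 2.86) lay below Amt in all libraries, and the ranges of Slc6a5, Glra3 and Glra1 overlapped each other. The beta subunit and its scaffold were therefore the most abundant, and Glra2 was the leading alpha subunit, with 90.6% to 97.8% of the summed alpha subunit CPM per kb in each library.

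Slc6a5 (ENSMUSG00000039728, chr7:49910146-49963856, plus strand) encodes GlyT2, the transporter that defines glycinergic neurons. Its CPM was 0.0937, 0.0481, 0.0477 and 0.0916 in CTRL males, and 0.0233, 0.234, 0.139 and 0.0489 in CTRL females. In PS males it was 1.72 in LM25, 0.0990 in LM26, 0.125 in LM27 and 0.579 in LM28. In PS females it was 30.9 in LM29, 0.996 in LM30, 0.0227 in LM31 and 0.0226 in LM32. The transcript was thus near 0 in most libraries, high in a single PS female and low but above the rest in LM25, LM28 and LM30. The value in LM29 was 17.97-fold that of the next library, LM25.

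The PS females overlapped with the CTRL females on both sides. Their limma log2 fold change was 1.64 (SE 0.97, 95% confidence interval -0.45 to 3.72, adjusted p = 0.501), and without LM29 the gene fell under the filter and could not be tested. All 4 PS males lay above all 4 CTRL males, at a log2 fold change of 0.75 (SE 0.97, interval -1.33 to 2.84, adjusted p = 0.658). The lower PS males, at 0.0990 and 0.125 CPM, were close to the highest CTRL male at 0.0937, and without LM25 the gene again fell under the filter. The PS effect did not pass the test of a difference between the sexes (-0.89, SE 1.37, adjusted p = 0.72).

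The start of Slc6a5 is shown because this was the member with the widest range of values. In the RefSeq window on GRCm38.p6 from 250 bases before to 50 bases after its first start (chr7:49910049-49910348, plus strand), none of the 4 motifs searched on both strands was present: TATAAA (the TATA box), CCAAT (bound by nuclear factor Y), GGGCGG (the GC box) and AGAACA (a glucocorticoid receptor half-site). These letters occur in 13.6%, 37.4%, 35.7% and 18.97% of 32851 RefSeq windows of this length. The window had 49.7% G or C, beside a median of 52.7% over all windows.
Slc6a5: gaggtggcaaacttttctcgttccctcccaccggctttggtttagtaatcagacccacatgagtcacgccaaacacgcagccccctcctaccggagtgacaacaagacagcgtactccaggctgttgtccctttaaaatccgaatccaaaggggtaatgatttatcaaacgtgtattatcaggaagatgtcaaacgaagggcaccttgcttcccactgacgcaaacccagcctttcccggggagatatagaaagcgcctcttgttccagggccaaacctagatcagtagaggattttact

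Few other genes shared the peak of Slc6a5 in LM29. Of 14392 genes, 3 were higher in LM29 than in every other library by over 1 on the log2(CPM + 0.5) scale, and 16 and 6 were so in the PS males LM25 and LM28. The gap between LM29 and the next library was 3.82 for Slc6a5, 2.89 for Col22a1 (a collagen chain) and 1.93 for Slc6a2 (the noradrenaline transporter) on that scale. Col22a1 was at 53.5 CPM in LM29 and at 2.05 to 6.78 elsewhere, and Slc6a2 at 2.22 in LM29 and at 0.0233 to 0.216 elsewhere. Smaller gaps were 0.61 for Lamp5, 0.58 for Prx (a protein of peripheral nerve myelin), 0.58 for Tcf24 and 0.44 for Mab21l1. Prx was at 19.7 CPM in LM29, with up to 13.02 in another library. Slc6a5 was chosen with its level in LM29 known, so its own gap restates the choice. Slc6a2 and Tcf24 exceeded the filter of 0.5 CPM only in the PS female mean (0.646 and 0.509), where LM29 was the highest library. Their place among these genes was thus set in part by the filter.

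As a description of likeness over the 16 libraries, genes among those with the highest Pearson r of log2(CPM + 0.5) with Slc6a5 were Slc6a2 (0.85), Col22a1 (0.81), Tmem63b (0.81), Adamtsl5 (0.79), Tbx2 (0.79), Msto1 (0.78) and Usp36 (0.77). All points share the same removal of unwanted variation, and LM29 carried much of the likeness for some. Without LM29 the r of Slc6a2 was -0.24 and that of Col22a1 -0.15, whereas that of Tmem63b was 0.64 and that of Adamtsl5 0.87.

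Some markers of hindbrain and of monoamine neurons were also high in single libraries, not always those highest for Slc6a5. Hox genes are set in hindbrain and spinal cord and are silent in forebrain. Of 14 Hox genes listed, 5 were in the table (Hoxa2, Hoxb2, Hoxb3, Hoxb4 and Hoxa5). Their summed CPM was 0.334 in LM29 and 0.759 in LM30, 0.0240 in the CTRL male LM18 and 0 in the other 13 libraries. Hoxb3, the highest, had 0.308 CPM in LM30 and 0.0955 in LM29. Hox transcripts were thus seen in the same PS females that were the highest of their group for Slc6a5, although LM30, with more Hox transcript, had less Slc6a5.

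Among 8 markers of glycinergic and hindbrain inhibitory neurons, 6 were in the table and summed to 33.8 to 75.3 CPM, almost all of it Slc32a1, which GABA neurons share; the sum in LM29, 52.9, was within the range of the CTRL females (45.7 to 59.8). Pax2, a factor of dorsal inhibitory neurons of hindbrain and cord, was at 0.573 CPM in LM29 and at 0.0246 to 0.160 elsewhere. Gata3 was at 0.197 in LM25, 0.289 in LM28, 0.119 in LM29, 0.0234 in the CTRL female LM22 and 0 in the other 12. Of 7 noradrenergic markers, 5 were in the table, with the highest sum in LM29 (6.66, against 2.38 to 4.85 elsewhere). Dbh, the enzyme that makes noradrenaline, was at 1.74 CPM in LM29 and 1.34 in LM31, where Slc6a5 was at 0.0227. Th was at 0.0955 in LM29, inside the range of the other libraries (0.0246 to 0.234). Tph2, the serotonin synthesis enzyme, had 7.81 and 3.62 CPM in LM25 and LM28 and at most 2.38 elsewhere. Of 3 serotonergic markers, 2 were in the table, with sums of 8.11 in LM25, 2.48 in LM29 and 1.64 to 2.47 in CTRL females. The part of tissue outside the amygdala in the Slc6a5 values was not tested.

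**Figure D2:**
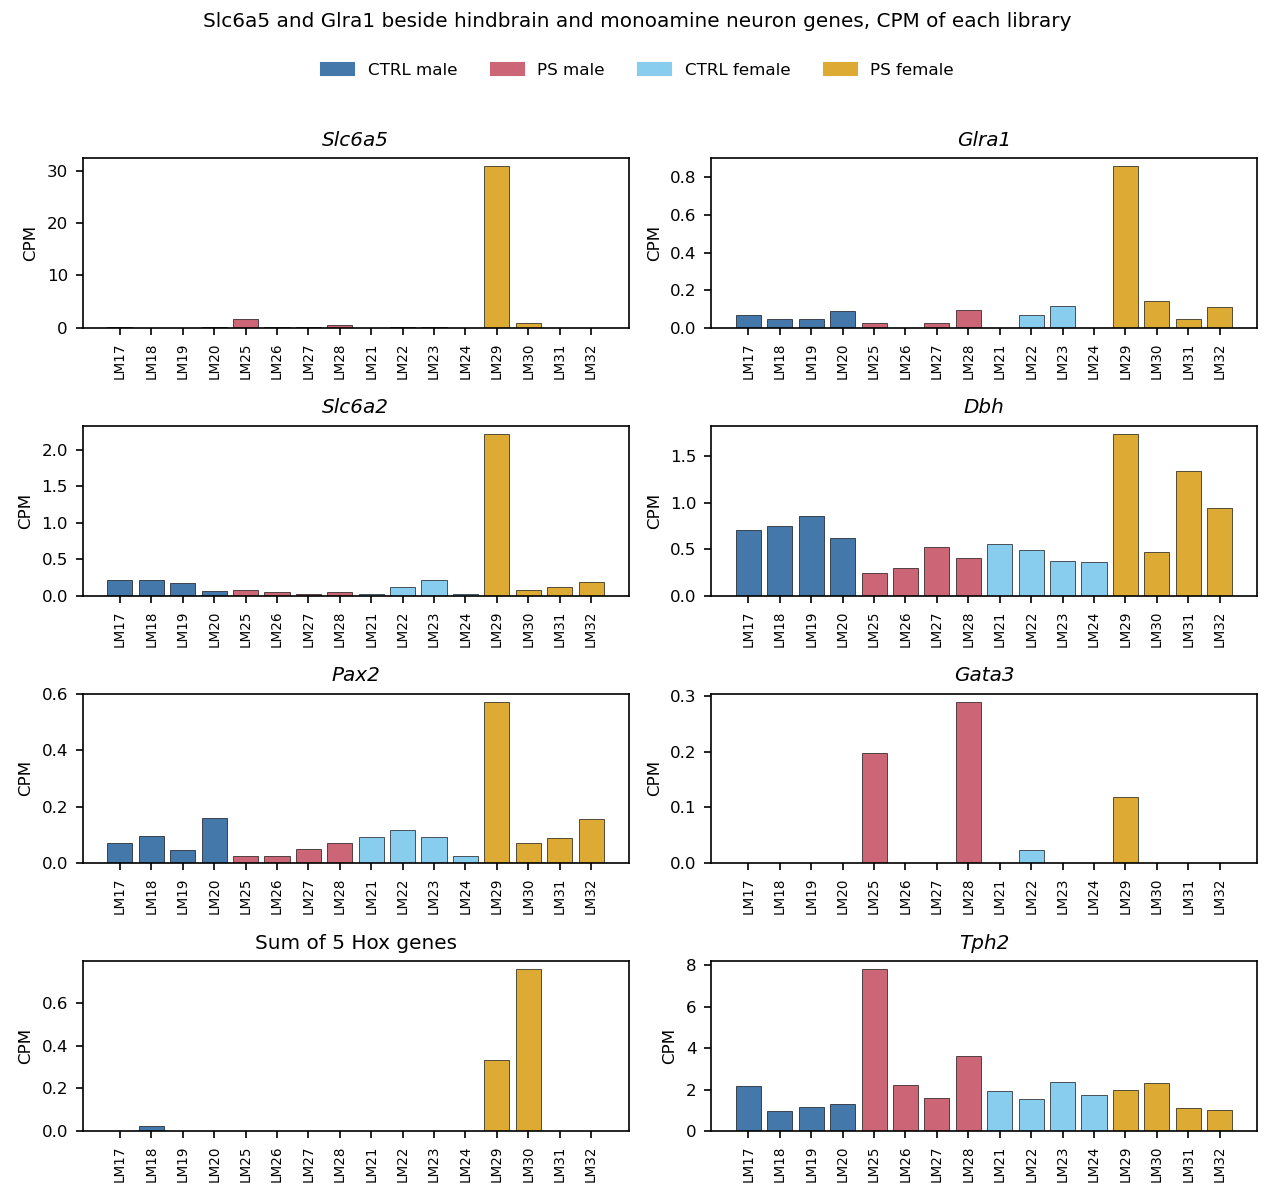
CPM of Slc6a5, Glra1, Slc6a2, Dbh, Pax2, Gata3, the sum of 5 Hox genes and Tph2 (y axes, each from 0) in the 16 libraries (x axes), bars coloured by group. Slc6a5, Glra1, Slc6a2 and Pax2 peaked in LM29 (30.9, 0.860, 2.22 and 0.573 CPM), the Hox sum in LM30 (0.759) and Tph2 in LM25 (7.81).

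Glra1 (ENSMUSG00000000263, chr11:55514238-55608198, minus strand), the alpha subunit of adult brainstem and cord, followed the same library. It was at 0.860 CPM in LM29 and 0.142 in LM30, and at 0 to 0.116 in the other 14. In CTRL males it was at 0.0703, 0.0481, 0.0477 and 0.0916 CPM, and in PS males at 0.0246, 0, 0.0250 and 0.0965. It made up 5.27% of the summed alpha subunit CPM per kb in LM29 and at most 1.28% in any PS male. With no filter on low values its log2 fold change was 0.43 between PS and CTRL females (SE 0.21, adjusted p = 0.46). Glra1 shares 141 exon bases with Gm12236 on the opposite strand, and the strand setting of the counting is not given in the sources used here.

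Slc6a9 (ENSMUSG00000028542, chr4:117834506-117875198, plus strand) encodes GlyT1, the glial route of glycine uptake, and was the more abundant transporter in every library but LM29, where it was 0.475 times Slc6a5 in CPM. Its CPM was 9.58, 10.8, 11.2 and 9.29 in CTRL males and 10.5, 11.2, 11.7 and 13.6 in PS males. In CTRL females it was 9.33, 13.2, 9.73 and 10.8, and in PS females 14.7, 11.5, 7.87 and 7.88. The groups overlapped in each comparison, and the PS females held both the highest and the lowest libraries. The log2 fold change was 0.14 in males (SE 0.17, interval -0.22 to 0.50, adjusted p = 0.636) and -0.049 in females (SE 0.17, interval -0.41 to 0.31, adjusted p = 0.928). Leaving out LM29 and LM30, the highest PS females for Slc6a9, put the PS females below the PS males by a log2 fold change of -0.45. The adjusted p of that limma fit was 0.0221, and the fold change was under that needed for a call. The lower value follows from which libraries were left out, and the fit kept neither direction of unwanted variation as a covariate. It called 965 genes between these groups, in place of 299. Slc6a9 shares 1429 exon bases with Ccdc24, 511 with Gm17114 and 46 with B4galt2, all on the opposite strand, so its counts are uncertain to that extent.

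Glra2 (ENSMUSG00000018589, chrX:165129017-165327393, minus strand) encodes the alpha subunit best known from immature neurons. Its CPM was 17.6, 29.6, 25.6 and 23.9 in CTRL males and 12.3, 19.4, 19.7 and 9.28 in PS males. In CTRL females it was 19.3, 15.97, 22.7 and 21.2, and in PS females 19.3, 15.5, 21.6 and 24.98. Of the PS males, LM25 and LM28 were below every other library, while LM26 and LM27 lay inside the range of the CTRL males.

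The Glra2 log2 fold change was -0.75 in males (SE 0.23, interval -1.25 to -0.26, unadjusted p = 0.00599), and its adjusted p of 0.0761 missed the threshold. In females it was 0.051 (SE 0.23, interval -0.45 to 0.55, adjusted p = 0.948). The difference between the sexes in PS effect was -0.81 (SE 0.33, adjusted p = 0.153), and PS females exceeded PS males by 0.52 (SE 0.23, adjusted p = 0.137). Without both LM25 and LM28, the male log2 fold change was -0.34 (adjusted p = 0.372). Leaving out single libraries gave -0.89 to -0.56, and 5 of 16 such fits called the gene.

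Glra3 (ENSMUSG00000038257, chr8:55940460-56130070, plus strand), an alpha subunit of restricted expression best known from the dorsal horn of the cord, showed the lowest adjusted p of the members. Its CPM was 3.16, 4.02, 3.003 and 4.33 in CTRL males and 1.67, 2.20, 1.53 and 1.13 in PS males. In CTRL females it was 3.31, 2.41, 3.54 and 1.37, and in PS females 2.58, 1.66, 2.70 and 4.16. Every PS male was below every CTRL male, and the female groups overlapped.

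The Glra3 log2 fold change in males was -1.01 (SE 0.27, interval -1.60 to -0.42, unadjusted p = 0.00249, adjusted p = 0.0587), 0.496 times the CTRL level. In females it was 0.078 (SE 0.27, interval -0.51 to 0.67, adjusted p = 0.931). The difference between the sexes was -1.09 (SE 0.39, adjusted p = 0.108), and PS females exceeded PS males by 0.65 (SE 0.27, adjusted p = 0.122). Without LM25 and LM28 the male value was -0.86 (adjusted p = 0.183), and 9 of 16 fits that left out a single library called it. Neither alpha subunit therefore passed the test in either sex, and the male side of the threshold depended on which libraries entered the fit.

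Groups without overlap were read against all genes, on the deposited CPM. Between PS and CTRL males 3 of 8 tested members did not overlap (Slc6a5 and Amt higher, Glra3 lower), beside 23.9% of all genes. Slc6a5 passed the filter in males only through the PS males in which it was high, so its count here was set in part by the filter, and without it 2 of 7 did not overlap. In females 0 of 8 did so, beside 7.45%, and between CTRL females and CTRL males 1 of 7 (Gldc), beside 4.23%. Between PS females and PS males 0 of 8 did so, beside 23.7%.

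**Figure D3:**
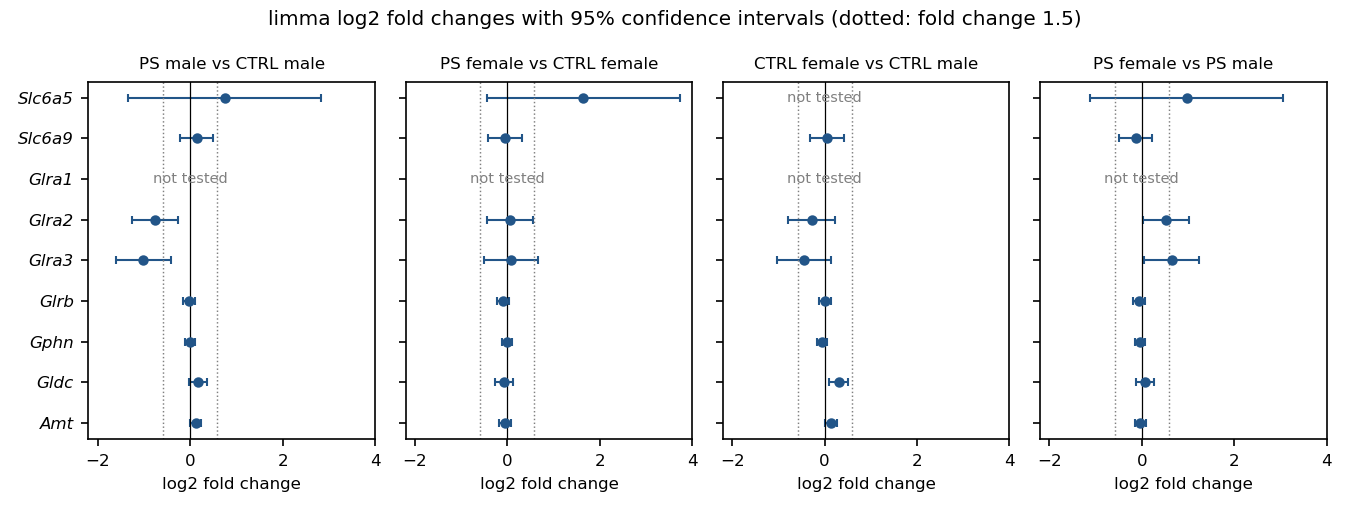
limma log2 fold changes (x axes, log2(CPM + 0.5) scale) of the glycine genes (y axis) in 4 comparisons, with 95% confidence intervals; dotted lines mark a fold change of 1.5 and genes under the filter are marked as not tested. Glra2 (-0.75) and Glra3 (-1.01) lay left of 0 between PS and CTRL males, the intervals of Slc6a5 were the widest, and those of Glrb, Gphn, Gldc and Amt lay within the dotted lines.

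Regional markers also differed between PS and CTRL males. Over all genes in that comparison, 25.7% had an unadjusted p under 0.05 (2018 of 14309 lower) and 1.01% were called. Of 10 central amygdala and intercalated cell markers, 6 were tested, and 6 of 6 had a negative log2 fold change and an unadjusted p under 0.05 in PS males. Their median was -0.94, and Tshz1, a factor of intercalated cells, was called (-0.62, SE 0.15, adjusted p = 0.047), while Six3 was at 0 in all libraries. Of 12 hippocampal markers 10 were positive in PS males, with a median of 0.80 and 0 called. The libraries with the lowest Glra2, LM28 and LM25, had the lowest central amygdala sums and the highest hippocampal sums of all 16. In the other PS males, LM26 and LM27, Glra3 was at 2.20 and 1.53 CPM, their hippocampal sums lay inside the CTRL male range, and their central amygdala sums were 64.0, below every CTRL male, and 76.6. LM25 had more Glra3 (1.67 CPM) than LM27, with a lower central amygdala sum (36.0 against 76.6). Further lists moved in the same comparison. Oligodendrocyte markers were positive in 12 of 12 (median 0.76, 0 called), with sums of 532 to 1110.5 CPM in PS males and 283 to 562 in CTRL males. Thalamic and habenular markers were positive in 8 of 8 tested (median 0.57, 1 called), with sums of 158 to 263 against 140.5 to 171 CPM. Microglia markers were negative in 10 of 10 (median -0.22, 8 with an unadjusted p under 0.05, 0 called), with sums of 190.2 to 234 against 228 to 258 CPM. The part of these cells and regions in the Glra2 and Glra3 values was not tested.

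**Figure D4:**
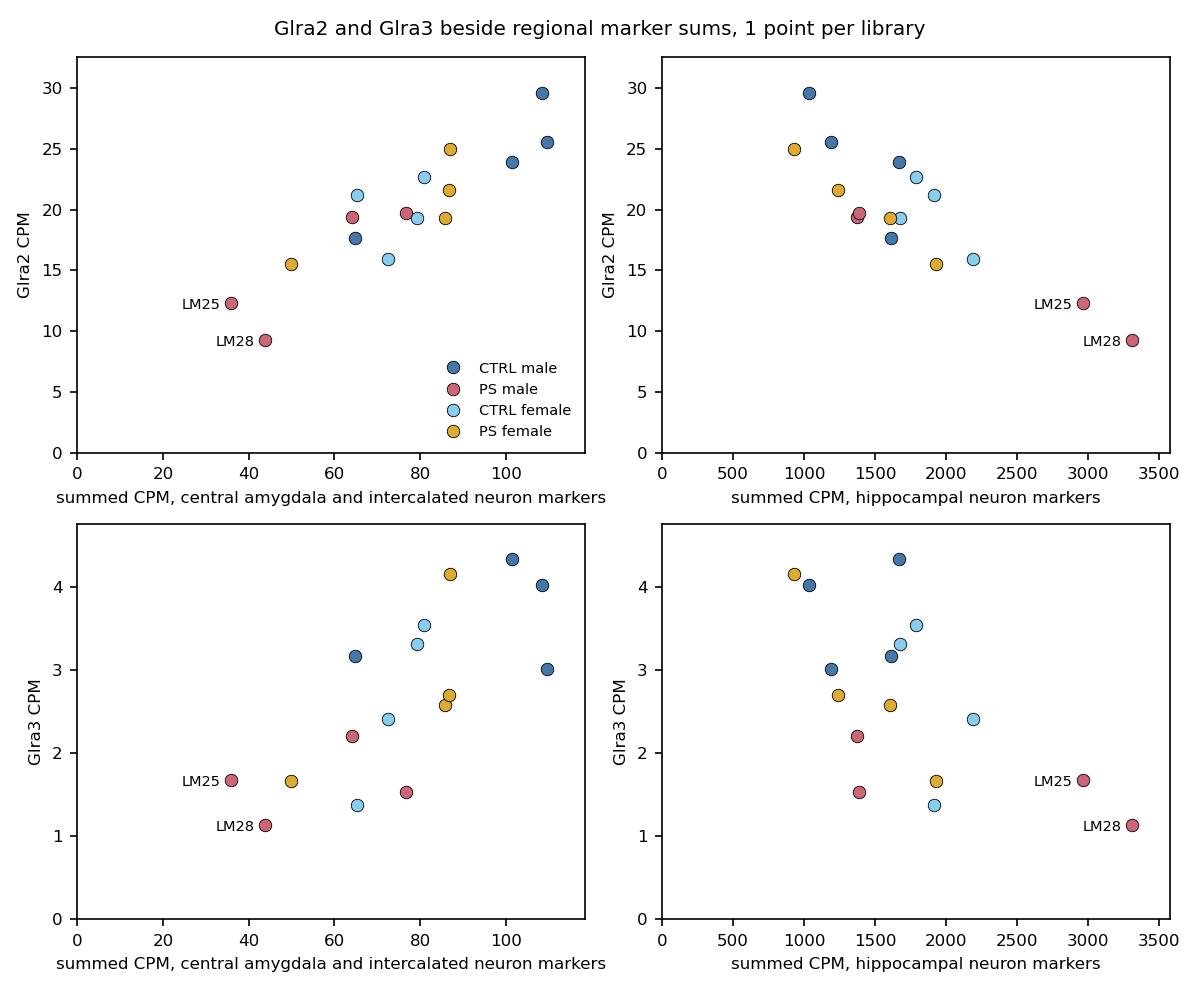
CPM of Glra2 (upper panels) and Glra3 (lower panels) against the summed CPM of 10 central amygdala and intercalated cell markers (left) and 12 hippocampal markers (right), 1 point a library, coloured by group. LM25 and LM28 lay at 36.0 and 43.8 on the left x axes and at 2962 and 3311 on the right ones, with Glra2 at 12.3 and 9.28 CPM.

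The promoter windows of Glra2 and Glra3 are shown because these were the members with the lowest adjusted p in males. In capitals are the motifs found, out of the same 4 searched on both strands. The Glra2 window (chrX:165327344-165327643, minus strand) held 1 TATAAA and 1 GGGCGG, each on the reverse strand. The Glra3 window (chr8:55940168-55940467, plus strand) held 2 CCAAT, 1 of them on each strand, and 1 GGGCGG on the reverse strand. Neither held AGAACA. A match is a description of the letters and not a site of binding.
Glra2: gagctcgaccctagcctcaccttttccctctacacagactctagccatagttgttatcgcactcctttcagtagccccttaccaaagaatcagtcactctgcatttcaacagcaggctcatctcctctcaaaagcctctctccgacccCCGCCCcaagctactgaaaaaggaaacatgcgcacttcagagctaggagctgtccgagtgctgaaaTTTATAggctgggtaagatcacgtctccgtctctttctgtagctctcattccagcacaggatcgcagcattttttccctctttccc
Glra3: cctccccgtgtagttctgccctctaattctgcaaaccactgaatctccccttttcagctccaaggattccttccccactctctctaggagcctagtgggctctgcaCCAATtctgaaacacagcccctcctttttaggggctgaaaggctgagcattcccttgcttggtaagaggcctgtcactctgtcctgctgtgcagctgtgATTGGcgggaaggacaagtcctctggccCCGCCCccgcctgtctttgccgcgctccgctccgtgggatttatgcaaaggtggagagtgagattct

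Glrb (ENSMUSG00000028020, chr3:80843599-80913660, minus strand), the beta subunit that links the receptor to its scaffold, varied little. Its CPM was 226, 216, 225 and 223 in CTRL males, 256, 236, 224 and 205 in PS males, 232, 227, 212 and 234 in CTRL females and 225, 213, 208 and 191 in PS females. The log2 fold change was -0.016 in males (SE 0.061, interval -0.15 to 0.11, adjusted p = 0.892) and -0.091 in females (SE 0.061, interval -0.22 to 0.040, adjusted p = 0.548). The male value was 0.044 where CPM was not scaled further. The intervals in both sexes were well inside a fold change of 1.5.

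The ratio of Glrb to the summed alpha subunits, per kb, was 10.7 ± 3.52 (SD, n = 4) in PS males. It was 6.11 ± 1.44 in CTRL males, 7.51 ± 1.28 in CTRL females and 6.79 ± 1.68 in PS females. The PS male ratios ran from 7.48 to 14.2 and overlapped with those of the CTRL males (4.71 to 8.12).

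Gphn (ENSMUSG00000047454, chr12:78226379-78684772, plus strand) encodes gephyrin, which clusters glycine and GABA-A receptors and also makes the molybdenum cofactor. Its CPM was 95.3, 101, 102 and 96.9 in CTRL males, 100.04, 110, 105 and 94.6 in PS males, 92.2, 96.3, 99.3 and 96.8 in CTRL females and 95.9, 92.5, 91.1 and 97.3 in PS females. It was the least variable member, with a coefficient of variation of 5.04% over the 16 libraries, and all groups overlapped. The log2 fold change was -0.011 in males (SE 0.051, interval -0.12 to 0.098, adjusted p = 0.908) and -0.0077 in females (SE 0.051, interval -0.12 to 0.10, adjusted p = 0.963), and the male value was 0.049 where CPM was not scaled further. Gphn shares 147 exon bases with Gm48226 on the opposite strand.

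Gldc (ENSMUSG00000024827, chr19:30098447-30175429, minus strand), the decarboxylase that starts glycine cleavage and an astrocyte enzyme in brain, had its lowest mean in CTRL males. Its CPM was 41.7, 34.2, 34.7 and 39.6 in CTRL males and 47.5, 46.3, 45.2 and 47.9 in CTRL females. In PS males it was 45.7, 37.4, 42.7 and 51.2, and in PS females 42.2, 46.4, 42.7 and 44.2. Every CTRL female exceeded every CTRL male, by a log2 fold change of 0.31 (SE 0.093, interval 0.11 to 0.51, unadjusted p = 0.00544), but the adjusted p was 0.862. The value was 0.17 in males (SE 0.093, interval -0.029 to 0.37, adjusted p = 0.263) and -0.070 in females (SE 0.093, interval -0.27 to 0.13, adjusted p = 0.789). In males the spread between PS libraries covered most of the CTRL range, and without LM25 and LM28 the value was 0.027.

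Amt (ENSMUSG00000032607, chr9:108296853-108302302, plus strand), the aminomethyltransferase that hands the carbon unit to folate, showed small differences in the same directions. Its CPM was 10.3, 11.3, 11.4 and 9.59 in CTRL males and 11.9, 12.2, 12.5 and 11.8 in PS males. In CTRL females it was 11.9, 11.3, 11.7 and 12.6, and in PS females 11.9, 11.6, 10.6 and 10.9. All PS males exceeded all CTRL males, by a log2 fold change of 0.12 (SE 0.058, interval -0.0030 to 0.24, adjusted p = 0.206). CTRL females exceeded CTRL males by 0.14 (SE 0.058, unadjusted p = 0.0258, adjusted p = 0.868), and the female PS value was -0.056 (SE 0.058, adjusted p = 0.715). The difference between the sexes in PS effect was 0.18 (SE 0.081, unadjusted p = 0.0487, adjusted p = 0.2). The ratio of Gldc to Amt per kb was 1.21 to 1.74 over the 16 libraries, and its group means were 1.42 to 1.58.

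Among partners of the glycine cleavage system, 14 of 14 genes listed were tested. Between PS and CTRL males 11 were positive, with a median of 0.11, and 7 did not overlap, all higher, beside 23.9% of all genes without overlap (2470 of 14309 higher). Only Shmt1 was called among the 14, beside 1.01% of all genes. Shmt1, the cytosolic serine hydroxymethyltransferase that interconverts serine and glycine, was at 2.48, 2.53, 3.48 and 2.40 CPM in CTRL males and 3.91, 4.48, 5.03 and 6.25 in PS males. In CTRL females it was at 3.13, 4.14, 3.03 and 3.98, and in PS females at 3.53, 3.46, 2.75 and 2.06. It rose in PS males (log2 fold change 0.69, SE 0.17, adjusted p = 0.047) and was lower in PS females than in PS males (-0.59, SE 0.17, adjusted p = 0.0378). The latter call was lost in 4 of the 16 fits without a single library (LM27, LM28, LM31 or LM32, adjusted p up to 0.0822), without LM25 and LM28 (0.0526) and with a pseudocount of 2 (log2 fold change -0.44).

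Unlike the 9 members, Shmt1 passed the test of a difference in PS effect between the sexes (0.92, SE 0.24, adjusted p = 0.0494), but it kept that call in only 8 of the 16 fits without a single library (lost without LM17, LM18, LM20, LM22, LM24, LM27, LM31 or LM32, adjusted p up to 0.0724), and lost it with no filter (0.0621) and with no mean trend (0.0603). The male call was lost with no filter (adjusted p = 0.0585), with no mean trend (0.0568), with a pseudocount of 2 (log2 fold change 0.51, under the fold needed) and in 5 of the 16 fits without a single library (LM18, LM19, LM20, LM25 or LM28). Without LM25 and LM28 its value was 0.66 (adjusted p = 0.113). Its mitochondrial counterpart Shmt2 was 0.14 higher in PS males (SE 0.06, adjusted p = 0.167), and Gcsh, the carrier protein of the complex, 0.21 higher (SE 0.06, adjusted p = 0.0794), both without overlap. Dld, the subunit shared with other dehydrogenases, was at 0.070 (SE 0.045, adjusted p = 0.336). In females 4 of the 14 were positive and 10 negative, with a median of -0.064 and 0 called.

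**Figure D5:**
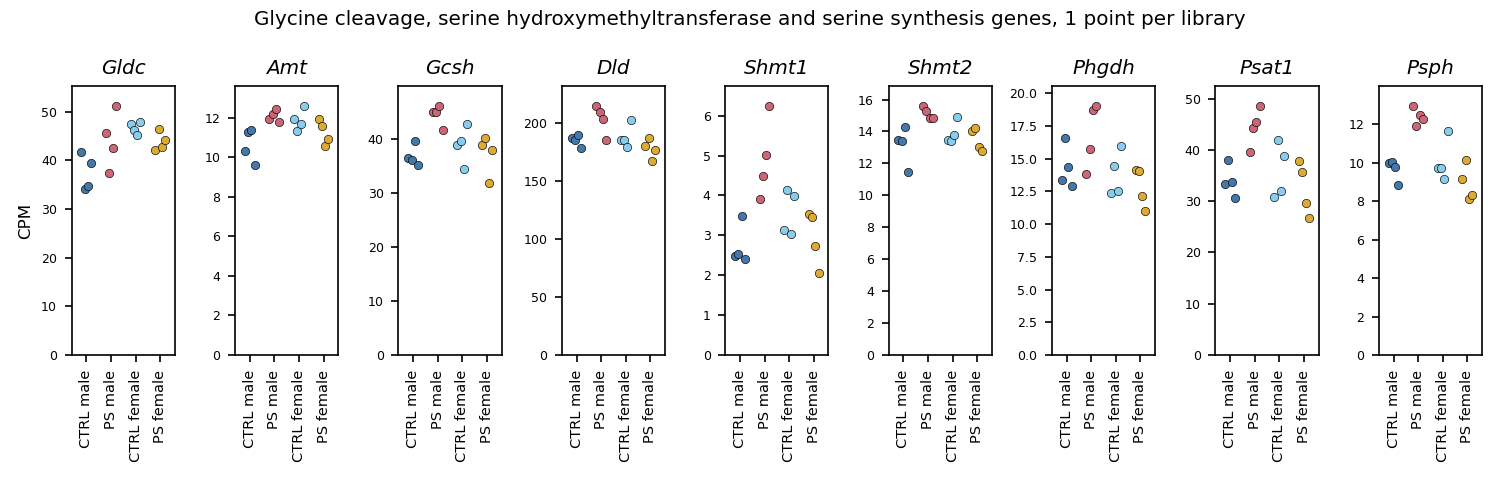
CPM (y axes, each from 0) of glycine cleavage genes (Gldc, Amt, Gcsh, Dld), both serine hydroxymethyltransferases and the serine synthesis genes Phgdh, Psat1 and Psph in each library, by group on the x axes. The 4 PS males lay above the 4 CTRL males for Amt, Gcsh, Shmt1, Shmt2, Psat1 and Psph, beside 23.9% of all genes without overlap. Shmt1 alone was called, beside 1.01% of all genes.

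Of 17 genes of serine and glycine metabolism, 15 were in the table and 12 were tested, and 0 were called in any comparison. Between PS and CTRL males 10 were positive, with a median of 0.20, and 5 did not overlap, all higher, again beside 23.9% of all genes. Psph, the last enzyme of serine synthesis, passed the adjusted p but not the fold change: its values were 8.86 to 10.03 CPM in CTRL males and 11.9 to 12.9 in PS males, a log2 fold change of 0.29 (SE 0.07, adjusted p = 0.047). It was lower in PS females than in PS males (-0.39, SE 0.07, adjusted p = 0.0118), and its PS effect differed between the sexes by 0.43 (SE 0.10, adjusted p = 0.0446). Psat1, the transaminase before it, was 0.33 higher in PS males (SE 0.12, adjusted p = 0.107) and lower in PS females than in PS males (-0.39, SE 0.12, adjusted p = 0.0421). Without single libraries the adjusted p stayed under 0.05 in 11 of 16 fits for Psph in males (lost without LM18, LM19, LM20, LM25 or LM28, up to 0.0927) and in 11 of 16 for Psat1 between PS females and PS males (lost without LM26, LM27, LM28, LM31 or LM32, up to 0.0937). Phgdh, the first enzyme, was at 0.16 in males (SE 0.12, adjusted p = 0.397). Dao, which oxidises D-serine and is abundant in hindbrain, was at 0.215 CPM in LM29, 0.0491 in LM25, 0.0241 in LM28 and 0 in the other 13 libraries.

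Gldc and Phgdh are enriched in astrocytes in brain, and 1 of the listed cleavage partners, Aldh1l1, is also an astrocyte marker. Of 12 astrocyte markers, all in the table, 9 were positive and 0 called between PS and CTRL males, with a median of 0.17, and 5 did not overlap, beside 1.01% called and 23.9% without overlap over all genes. Their summed level was 5006 to 5362 CPM in PS males and 4870 to 5252 in CTRL males. In females 2 were positive and 10 negative, with a median of -0.13. The part of these cells in the enzyme values was not tested.

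Of 12 genes of glycine release, uptake and synaptic scaffolding, 11 were in the table and 10 were tested. None was called in any comparison, and in males 5 were positive and 5 negative. Slc32a1, the vesicular transporter for GABA and glycine, was at 43.8, 63.7, 73.0 and 51.5 CPM in CTRL males and 30.6, 50.2, 49.6 and 42.7 in PS males (log2 fold change -0.48, SE 0.18, adjusted p = 0.121), with the lowest values of PS males in LM25 and LM28. Its level in LM29, 49.7 CPM, was within the range of the CTRL females (42.8 to 57.2).

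Nlgn2, the adhesion protein that works with gephyrin at inhibitory synapses, was the scaffold partner with the lowest adjusted p. It was at 240 to 253 CPM in CTRL males and 195 to 234 in PS males, with no overlap (log2 fold change -0.29, SE 0.08, adjusted p = 0.0534). PS females exceeded PS males (0.36, SE 0.08, adjusted p = 0.0145) and the PS effect differed between the sexes (-0.49, SE 0.11, adjusted p = 0.0446), both under the fold change of 1.5 needed for a call. Mocs3, an enzyme of the molybdenum cofactor pathway to which gephyrin belongs, was lower without overlap (-0.23, SE 0.08, adjusted p = 0.0971), and Mocs2 of the same pathway was higher without overlap (0.17, SE 0.07, adjusted p = 0.129). Of the 10 genes tested, 1 was higher and 2 were lower without overlap in males, beside 23.9% of all genes without overlap. Glra4 was at 0 in all 16 libraries.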

How the data were processed

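Amygdala RNA of 16 C57BL/6 mice was sequenced from directional poly(A) libraries, and the authors aligned unique reads to mm10 with STAR, counted genes with featureCounts and used RUVs with edgeR. Tool versions and the strand setting are not given in the sources used here. The deposited table gives, per library, a score headed as raw that is not a read count: the authors had scaled it and removed 2 factors of unwanted variation before rounding, which left upper quartiles of 2156 to 2194 and 2 of 12 within-group directions almost empty (singular values 0.191 and 0.0900, against 6.08 to 21.3). The deposited CPM was computed by the authors from these scores. The authors' fold changes, p-values and FDR were not used.

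CPM was scaled by TMM (factors 0.950 to 1.05) and fitted as log2(CPM + 0.5) in limma 3.58.1 (R 4.3.3) with 1 mean per group over 16 libraries, an empirical Bayes mean trend and the 2 removed directions as covariates (10 residual degrees of freedom). Count tests planned for raw counts were not used. Genes with a mean above 0.5 CPM in a compared group were tested, with Benjamini-Hochberg adjustment over all of them. The fit was tested on simulated data.

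The members and gene lists were chosen with earlier results of these data known. Named were the 9 members, list genes called or else with the smallest adjusted p, and the genes most like Slc6a5 or with the widest gap in its top library. Other list genes and markers named were chosen after their values were seen. A few genes that met these rules are not reported here. Of 24 library pairs within groups, 0 were identical. Promoters were matched in RefSeq for 8 of 9 members (11 windows).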

Additional observations from a re-analysis of the deposited data

Results flagged for a closer look

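A check for single libraries far from the rest of their group of 4 was run on 52 sets of CPM values. These were the 9 members and 4 partner genes in 4 groups, and it marked 3. By chance the check marks about 1 in 20 sets of normally distributed values, and CPM near 0 need not be so distributed. The number of marks was not tested against chance. Slc6a5 in PS females was marked for LM29 at 30.9 CPM, whose gap to the next library was 0.968 of the group's range. Slc6a5 was chosen with this level known, so the mark restates the choice and is no independent evidence. Glra1 in PS females was marked for the same library at 0.860 CPM, with a gap of 0.881 of the range. Shmt1 in CTRL males was marked for LM19 at 3.48 CPM (0.887 of the range), and without that library the male log2 fold change was 0.80 (adjusted p = 0.052).

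The PS effect differed between the sexes by the interaction term of the limma fit for 3 partner genes: Shmt1 at 0.92 (adjusted p = 0.0494), Psph at 0.43 (adjusted p = 0.0446) and Nlgn2 at -0.49 (adjusted p = 0.0446). They were 1 of 14 tested cleavage partners, 1 of 12 serine and glycine metabolism genes and 1 of 10 release, uptake and scaffold genes. Only Shmt1 also passed the fold change, beside 1.61% of all genes called. The share of all genes that passed the adjusted p alone was not computed. Without single libraries the adjusted p stayed under 0.05 in 8, 12 and 13 of 16 fits, reaching 0.0724 for Shmt1 (lost without LM17, LM18, LM20, LM22, LM24, LM27, LM31 or LM32), 0.0598 for Psph (without LM20, LM24, LM25 or LM31) and 0.0551 for Nlgn2 (without LM20, LM24 or LM31). It also passed in 9 of 11 other alternatives for each of the 3 genes, and was lost with no filter and with no mean trend. Of the 8 members tested for this difference 0 passed, although 3 had an unadjusted p under 0.05.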

How the results depend on the processing

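The call rule was recomputed with other scalings, pseudocounts, filters and variance models, without each of the 16 libraries, and, chosen after seeing the data, without the PS males LM25 and LM28 together and without the PS females LM29 and LM30 together. No paired analysis was run, because the labels name no litter or pair. Whether males and females shared litters is not given in the sources used here, and all libraries were fitted as independent. The counts of genes called moved as follows. The 145 genes between PS and CTRL males became 55 with no filter, 48 with no mean trend, 301 with the removed directions not kept, 0 without LM25 and LM28, 316 without LM29 and LM30, and 25 to 321 without single libraries. The 0 between PS and CTRL females became 4 without LM29 and LM30 and stayed 0 without any single library. The 8 between CTRL females and CTRL males became 5 with a pseudocount of 2 and 7 to 8 without single libraries. The 299 between PS females and PS males became 195 with a pseudocount of 2, 965 without LM29 and LM30 and 172 to 517 without single libraries. The 231 for the difference between the sexes became 80 with no filter, 9 with no mean trend, 481 with the removed directions not kept, 1075 without LM29 and LM30 and 60 to 564 without single libraries. Fits without a single library kept only a combination of the removed directions as a covariate, and fits without a pair of libraries kept neither direction. A changed count in those fits thus mixes the libraries left out with a changed model. The part of each was not tested.

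Of 1048 recomputed values of 39 member results, 989 kept their direction and side of the threshold, 24 passed it and 35 changed sign. Those that passed were all Glra2 or Glra3 in the male comparison (18), the PS female against PS male comparison (3) or the difference between the sexes (3). With CPM not scaled further the sign changed for Glrb (0.044) and Gphn (0.049) between PS and CTRL males, Gldc between PS females and PS males (-0.0039) and Gphn between the sexes (0.078). Without LM25 and LM28 it changed for Gphn in males (0.054) and between the sexes (0.062), and without LM29 and LM30 for Gphn in females (0.025), and for Slc6a5 between PS females and PS males (-0.88) and between the sexes (0.96). Without single libraries the log2 fold change in males ran from -0.059 to 0.026 for Glrb and from -0.042 to 0.014 for Gphn, and in females from -0.21 to 0.060 for Slc6a9, -0.058 to 0.18 for Glra2, -0.17 to 0.27 for Glra3 and -0.029 to 0.021 for Gphn. Between CTRL females and CTRL males it ran from -0.046 to 0.11 for Slc6a9 and -0.0087 to 0.029 for Glrb, and between PS females and PS males from -0.37 to 1.59 for Slc6a5 and -0.018 to 0.15 for Gldc. For the difference between the sexes it ran from -1.51 to 0.46 for Slc6a5 and -0.034 to 0.021 for Gphn. Slc6a5 fell under the filter and gave no value in females without LM29, nor in males without LM25 or with a minimum mean of 1 CPM. Glra1 was tested with no filter only. Since the read depth is not known, the counting error of values under about 1 CPM cannot be given, and how large a change could be detected there is not known.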
